A study of Mus musculus with 78 samples.

Results

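Potassium channel genes were followed in cerebral arteries of male wild-type C57Bl6 mice. They were taken as every protein-coding row whose symbol begins with Kcn and a further letter, which gave 94 genes of 54532 rows. Of these, 30 reached at least 1 FPKM (fragments scaled to gene length and library depth) in at least 3 libraries and are described in detail. By role, 23 of 67 pore-forming genes, 6 of 17 auxiliary subunit genes and 1 of 10 genes for silent voltage-gated subunits, which form channels only with other subunits, reached that level.

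RNA sequencing covered 78 libraries in 20 groups of surgery, diet and day. Mice ate under intermittent fasting (IF) or ad libitum (AL) for 3 months before BCAS, a bilateral carotid artery stenosis that lowers blood flow to the brain (chronic cerebral hypoperfusion), or before sham surgery. The arms were BCAS under IF (20 libraries), BCAS under AL (19), sham under IF (19) and sham under AL (20), each spread over days 1, 7, 14, 21 and 30 after surgery. Groups held 4 libraries, except BCAS AL day 1 and sham IF day 7 with 3 each. Day 7 is given by the group labels alone, and the general treatment text does not list it. No label says whether libraries came from separate animals, so the p-values measure the spread between libraries, which may be partly technical.

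Potassium channels let potassium leave the cell, which makes the membrane potential more negative. In arterial smooth muscle this closes voltage-gated calcium channels and relaxes the vessel, and in endothelium it drives hyperpolarisation that spreads to the muscle. Inward rectifiers, voltage-gated, calcium-activated and K2P background channels share this task in cerebral arteries. Auxiliary subunits of voltage-gated and BK channels alter their gating and their number at the cell surface.

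Kcne4 and Kcnn4 had the lowest adjusted p after BCAS, so the sequences just before their annotated starts are shown. Both come from RefSeq promoter windows on GRCm38.p6 and end at the base before the first annotated exon. For Kcne4 this is chr1:78816661-78816757, plus strand. For Kcnn4 it is chr7:24370013-24370262, plus strand. Capitals mark CACCC, the core bound by Kruppel-like factors, and GGGCGG, the core bound by Sp factors, on either strand (GGGTG and CCGCCC on the other).
Kcne4: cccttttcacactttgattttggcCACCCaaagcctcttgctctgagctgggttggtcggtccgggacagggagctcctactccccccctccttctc
Kcnn4: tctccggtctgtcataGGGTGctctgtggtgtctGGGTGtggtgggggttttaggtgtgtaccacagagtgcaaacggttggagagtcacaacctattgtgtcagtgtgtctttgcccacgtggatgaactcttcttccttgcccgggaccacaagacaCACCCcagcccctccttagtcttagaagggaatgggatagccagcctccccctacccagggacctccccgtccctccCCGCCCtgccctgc
The 97 bases before Kcne4 held 1 CACCC, and the 250 bases before Kcnn4 held 3 CACCC and 1 GGGCGG. Promoter windows were found for 23 of the 30 genes, 33 windows in all. CACCC stood in 72.7% of these windows, and in 52% of all 32851 RefSeq windows of the same length. GGGCGG stood in 42.4% of the channel windows and 32.7% of all windows, and the CArG box, the site of serum response factor, in 0% and 1.47%. Also searched on both strands were TATAAA (in 3.03% of the channel windows and 12.4% of all), the box CCAAT (in 24.2% and 33.8%) and the Fos and Jun core TGANTCA (in 6.06% and 6.75%). These matches are descriptions of letters and no binding was measured.

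The libraries held 14601572 to 25944175 fragments (median 19500760), recovered from the deposited values. Markers of the labelled tissue were high, with a median of 5040 FPKM for the smooth muscle actin Acta2, 408 for the smooth muscle myosin Myh11, 471 for the endothelial claudin Cldn5 and 63.1 for Pecam1. All 6 smooth muscle, 10 of 10 endothelial, 6 of 6 pericyte and 5 of 5 fibroblast markers passed the level filter, but so did 9 of 10 neuron markers (Snap25 at a median of 1.01 FPKM), and Gfap of astrocytes had a median of 45.2 FPKM. Markers listed for meninges were high too, with medians of 41790 FPKM for Ptgds, 699 for Igfbp2, 229 for Slc6a13 and 61.2 for Foxc1. Pituitary Gh had a median of 68.6 FPKM and reached 4974 FPKM. The libraries thus held RNA with markers of tissues beside the artery wall. In 3 libraries genes under 300 bases took 0.279 to 0.322% of fragments, against at most 0.106% elsewhere. These were replicates 2 and 4 of sham AL day 7 and replicate 2 of BCAS AL day 1. Among them sham AL day 7 replicate 4 stood apart, with a smooth muscle score (mean log2(FPKM + 1) of the 6 markers) of 5.85, while the other 3 of its group had up to 6.99. That library had the lowest level of Kcnk3 (1.76 FPKM), Kcna5 (1.39), Kcnmb1 (7.92) and Kcnab1 (3.35) and the highest of Kcnk2 (31.7). Calls of channel genes lost or gained without these 3 libraries are given beside the results they touch. Comparisons that use neither of their groups, among them all within IF, keep their estimates. Their calls can change only through the spread estimated across groups and the adjustment over genes. In whole arteries fewer cells of a type and less RNA per cell cannot be told apart.

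The potassium channel RNA of these artery samples, which also held meningeal markers, was spread over many families, with no single leading gene. The highest mean level over the 78 libraries was that of Kcnj13, an inward rectifier, at 24.4 FPKM (15.4 to 38.6), followed by Kcnk2, a mechanically gated K2P channel, at 20.1 FPKM (14.5 to 31.7). The ranges of these neighbours overlapped. Kcnj13 is uncertain, because 49.06% of its exon bases lie opposite Gigyf2 (2.80 FPKM) and the counting is not stated to use strand. For Kcnk2 this share was 12.2%, opposite an antisense transcript at 0.706 FPKM, and for Kcnk1, Kcnma1 and Kcnk3 other annotated genes overlapped 8.01, 5.985 and 5.76% of exon bases.

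Auxiliary subunits came next in the order. Kcnmb1, the beta subunit of the large-conductance calcium-activated (BK) channel in smooth muscle, had a mean of 19.7 FPKM (7.92 to 30.2). Kcne4, a single-span subunit that acts on several voltage-gated channels, had 14.6 FPKM (8.85 to 23.7). Kcnip3, a calcium-binding protein that acts on A-type channels and as a transcriptional repressor, had 10.1 FPKM (7.63 to 13.6), and Kcnab1, a cytosolic beta subunit, had 9.95 FPKM (3.35 to 15.3). The BK pore Kcnma1 had only 1.68 FPKM (0.783 to 2.52), over a listed length of 16976 bases that held 243 to 983 fragments per library.

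Other pores lay between these. Kcnt1, a sodium-activated channel, had 12.3 FPKM (7.38 to 21.7), Kcnh2, the ERG channel, had 10.3 FPKM (4.56 to 14.1), and Kcnk3, an acid-sensitive K2P channel, had 9.89 FPKM (1.76 to 19.3). Kcnj12, a strong inward rectifier, had 7.39 FPKM, and Kcnk5, an alkali-activated K2P channel, 6.48 FPKM. Kcna5, a voltage-gated channel of smooth muscle, had 4.77 FPKM. Kcnj8, the pore of the vascular ATP-sensitive channel, had 4.68 FPKM (2.01 to 8.36), and Kcnn4, the intermediate-conductance calcium-activated channel known from endothelium, 4.33 FPKM (2.91 to 5.94). Lower means were those of Kcns3, a silent subunit, at 2.03 FPKM, and Kcnj10, an inward rectifier of glia, at 1.80 FPKM, while Kcna2 had 1.67 and Kcnd3 1.41 FPKM. Neighbours in this order mostly overlapped in range.

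**Figure D1:**
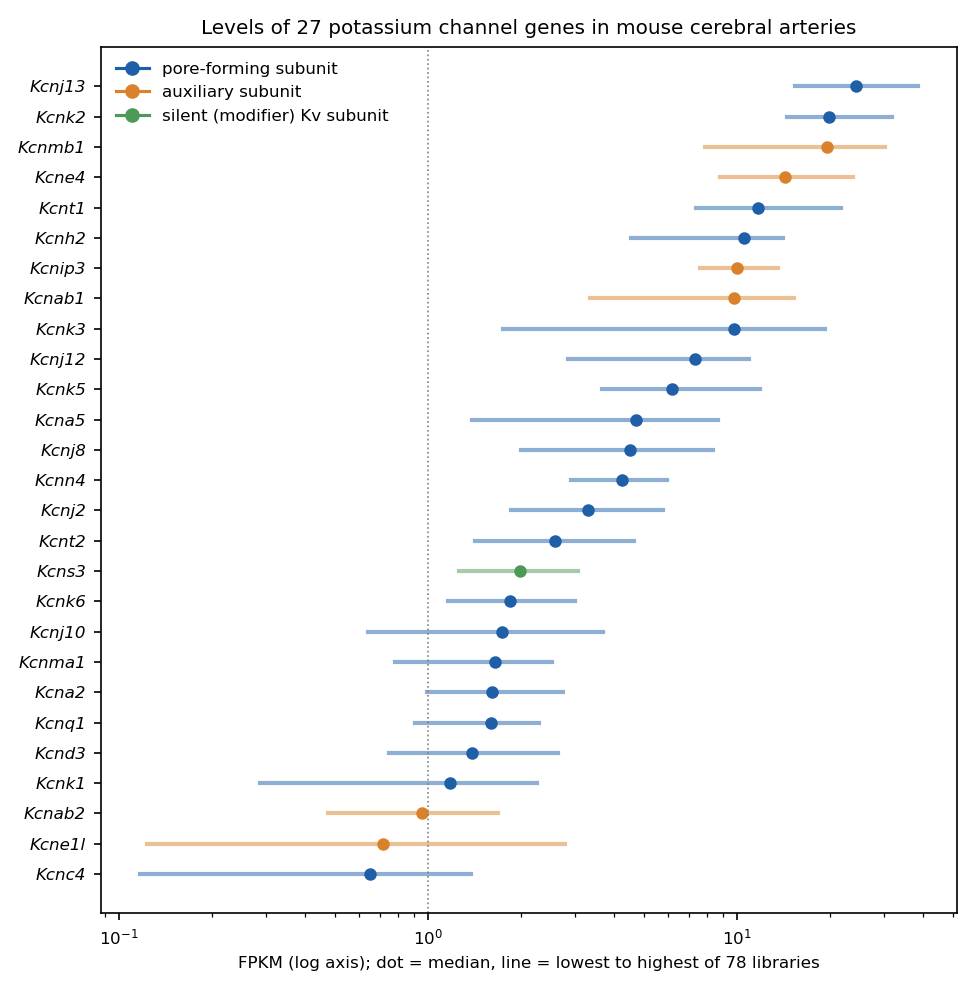
Level of 27 of the 30 potassium channel genes in 78 libraries, in FPKM on a log axis. Dots are medians and lines run from the lowest to the highest library, coloured by role, with genes ordered by mean level from Kcnj13 (24.4 FPKM) to Kcnc4 (0.669 FPKM); the dotted line marks 1 FPKM.

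The remaining 64 genes were low. Of these, 58 never reached 1 FPKM and 29 averaged under 0.1 FPKM, among them Kcnj11 at 0.0871 FPKM, the other pore of ATP-sensitive channels. The small-conductance calcium-activated channels Kcnn3 (0.452 FPKM) and Kcnn2 (0.178 FPKM) also stayed below the level. Just inside it lay Kcnc4, with a mean of 0.669 FPKM and 7 libraries at 1 FPKM or more. Just outside, with 2 such libraries each, lay Kcna6 (0.614 FPKM), Kcnj4 (0.578), Kcnab3 (0.539) and Kcnk13 (0.472). Over families, 5 of 15 inward rectifiers, 5 of 14 K2P genes, 2 of 8 Kcna genes, 2 of 5 Kcnq genes and 1 of 8 Kcnh genes passed.

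BCAS was compared with sham under each diet, as the mean of the 5 daily differences in log2(FPKM + 1), with limma across 15707 genes. On this scale the change of a low gene is understated, and the folds given below are of FPKM + 1. Few channel genes changed. Under IF, 1 of 30 rose (Kcne4) and none fell, 3.33% of the channels against 0.758% of all genes called (0.522% higher and 0.236% lower). Under AL, 2 of 30 rose (Kcnn4 and Kcnk3) and none fell, 6.67% against 0.987% of all genes (0.821% higher and 0.166% lower). With counts this small the shares describe single genes. The median change of the 30 genes was -0.015 under IF and 0.0039 under AL, beside 0.001 and 0.0032 for all genes tested.

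**Figure D2:**
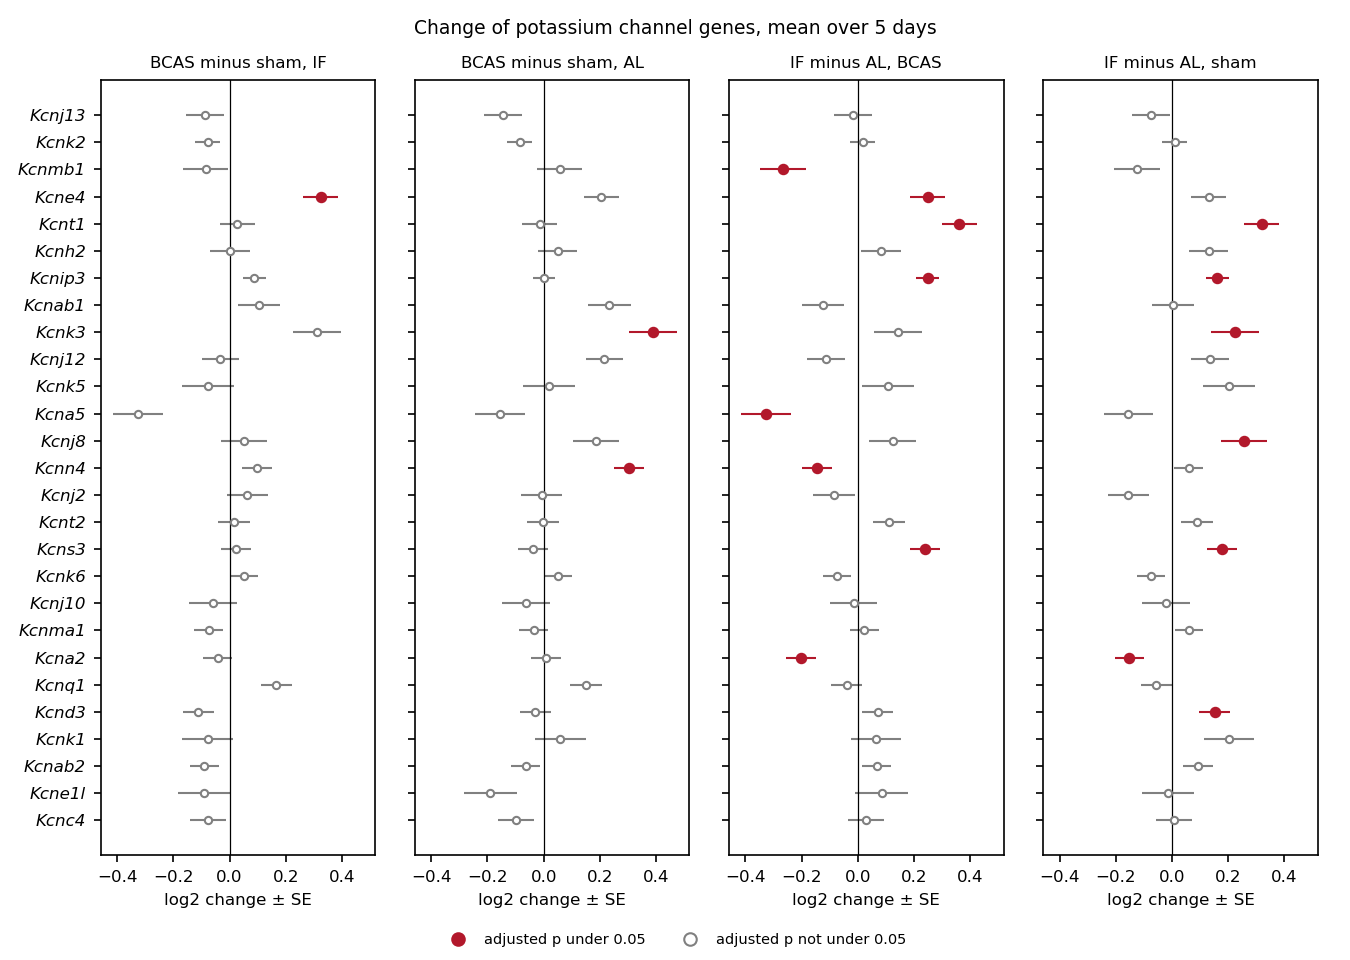
Mean change over 5 days in log2(FPKM + 1) for 27 of the 30 potassium channel genes in 4 comparisons: BCAS minus sham under IF, BCAS minus sham under AL, IF minus AL in BCAS and IF minus AL in sham. Points are limma estimates, bars are their standard errors, and filled red points have an adjusted p under 0.05, of which there are 1, 2, 8 and 7.

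Kcnn4 (ENSMUSG00000054342, chr7:24370263-24386690, GRCm38) opens in endothelium when intracellular calcium rises. Under IF it had a lowest, median and highest level of 2.91, 4.44 and 5.73 FPKM in BCAS arteries, against 3.00, 4.21 and 5.94 FPKM in sham arteries. Under AL these values were 3.70, 5.29 and 5.89 FPKM in BCAS and 2.96, 3.78 and 4.94 FPKM in sham arteries. The ranges of BCAS and sham overlapped in both diets. In limma Kcnn4 rose under AL by 0.30 ± 0.05 (log2, SE; fold 1.23; adjusted p = 0.000447), with a positive difference on all 5 days. Under IF the difference was 0.10 ± 0.05 and did not pass (adjusted p = 0.563).

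By day the AL difference in Kcnn4 was 0.03, 0.40, 0.18, 0.41 and 0.50 on days 1, 7, 14, 21 and 30. On day 7 BCAS AL arteries had 5.85, 4.31, 5.59 and 4.26 FPKM, against 3.43, 3.53, 3.82 and 3.30 FPKM in sham AL arteries. On day 30 they had 5.61, 5.50, 5.15 and 5.83 FPKM, against 2.96, 3.76, 4.48 and 3.38 FPKM. The groups did not overlap on either day, and both differences passed in limma (adjusted p = 0.0482 on day 7 and 0.0292 on day 30). Day 21, with BCAS AL at 5.29 to 5.89 FPKM and sham AL at 3.20 to 4.51 FPKM, was separated too, but 0% of all genes were called that day and Kcnn4 was not. The day 7 call was lost without the 3 short-gene-rich libraries (0.37, adjusted p = 0.277) and in 6 of 8 fits that left out a library of the pair. The day 30 call was lost in 7 of 8 such fits. Both calls were also lost with rescaling to TPM, no filter, the endothelium covariate or only the compared groups in the fit. That of day 7 was lost with limma-voom and with the brain or red blood cell covariate as well. Over all genes, 2.63% were called on day 7 and 0.357% on day 30.

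The mean score of endothelial markers was higher in BCAS than in sham arteries under both diets, a difference that was not tested. The endothelium score over 10 of 10 detected markers, none with a median of 0, averaged 5.42 ± 0.09 in BCAS AL (5.29 to 5.64, n = 19) and 5.27 ± 0.13 in sham AL arteries (4.87 to 5.43, n = 20; SD). Under IF it averaged 5.40 ± 0.12 in BCAS (5.10 to 5.59) and 5.31 ± 0.14 in sham arteries (5.08 to 5.53). With this score as a covariate the AL difference in Kcnn4 was 0.19 and no longer passed (adjusted p = 0.108). It passed in every fit that left out 1 of the 39 AL libraries.

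Kcnk3 (ENSMUSG00000049265, chr5:30588170-30625271, GRCm38) is a background channel that holds smooth muscle near its resting potential. Under IF it had a lowest, median and highest level of 7.004, 11.4 and 19.3 FPKM in BCAS arteries, against 6.10, 9.32 and 11.7 FPKM in sham arteries. Under AL it had 7.72, 10.9 and 13.1 FPKM in BCAS arteries, against 1.76, 8.17 and 10.6 FPKM in sham arteries. The upper end was higher in BCAS arteries of both diets, and all ranges overlapped. In limma it rose under AL by 0.39 ± 0.09 (fold 1.31; adjusted p = 0.00868), with a positive difference on all 5 days.

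Under IF the Kcnk3 difference was 0.31 ± 0.09 and just missed the threshold (adjusted p = 0.0621), positive on 4 of 5 days. Without the 3 short-gene-rich libraries the AL difference was 0.27 (adjusted p = 0.0111) and the IF difference 0.31 (adjusted p = 0.000854). All 3 are AL libraries, so the IF estimate was unchanged and its lower p came without any IF library left out. With the endothelium score as a covariate the AL call was lost (0.36, adjusted p = 0.108), as it was with only the compared groups in the fit (adjusted p = 0.0675). On day 30 BCAS IF arteries had 19.3, 11.7, 14.0 and 16.0 FPKM, against 11.02, 7.76, 8.47 and 9.95 FPKM in sham IF arteries. BCAS AL arteries of that day had 11.9, 10.5, 12.3 and 11.02 FPKM, against 7.48, 7.08, 8.54 and 8.94 FPKM in sham AL arteries. The day 30 groups did not overlap under either diet, yet neither difference passed alone. The IF difference of that day passed without the 3 short-gene-rich libraries (0.65, adjusted p = 0.00659), its estimate unchanged. With the smooth muscle score as a covariate both the IF (0.54, adjusted p = 0.0285) and the AL difference (0.57, adjusted p = 0.0233) passed.

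Kcne4 (ENSMUSG00000047330, chr1:78816758-78820028, GRCm38) encodes a subunit that alters Kcnq and Kcna channels in arterial muscle. Under IF it had a lowest, median and highest level of 12.2, 16.7 and 23.7 FPKM in BCAS arteries, against 9.74, 13.9 and 16.98 FPKM in sham arteries. Under AL it had 10.1, 14.3 and 20.4 FPKM in BCAS arteries, against 8.85, 12.2 and 17.4 FPKM in sham arteries. BCAS IF arteries were the high arm, with ranges that overlapped. In limma it rose under IF by 0.32 ± 0.06 (fold 1.25; adjusted p = 0.00153), positive on all 5 days, and under AL the difference was 0.21 (adjusted p = 0.0927). Without the 3 short-gene-rich libraries the AL difference was 0.24 and passed (adjusted p = 0.0425).

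The day of the largest Kcne4 difference was not the same in the 2 diets. Under IF the daily differences were 0.23, 0.64, 0.10, 0.16 and 0.50, and under AL 0.26, 0.09, 0.68, 0.12 and -0.13. On day 7 BCAS IF arteries had 19.8, 16.9, 16.0 and 23.7 FPKM, against 9.74, 12.5 and 13.3 FPKM in sham IF arteries (0.64 ± 0.15, limma adjusted p = 0.038). On day 14 BCAS AL arteries had 17.3, 16.6, 17.6 and 20.4 FPKM, against 10.2, 11.1, 9.71 and 12.5 FPKM in sham AL arteries (0.68 ± 0.13, adjusted p = 0.00628). Neither pair of groups overlapped. Of all genes 0.153% were called on IF day 7 and 0.337% on AL day 14. The IF day 7 call was lost in 5 of 7 fits that left out a library of the pair (adjusted p up to 0.239), and the AL day 14 call without sham AL day 14 replicate 1 (adjusted p = 0.0572) or replicate 3 (0.0501). Without day 7 the mean IF difference was 0.25 and did not pass (adjusted p = 0.185).

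**Figure D3:**
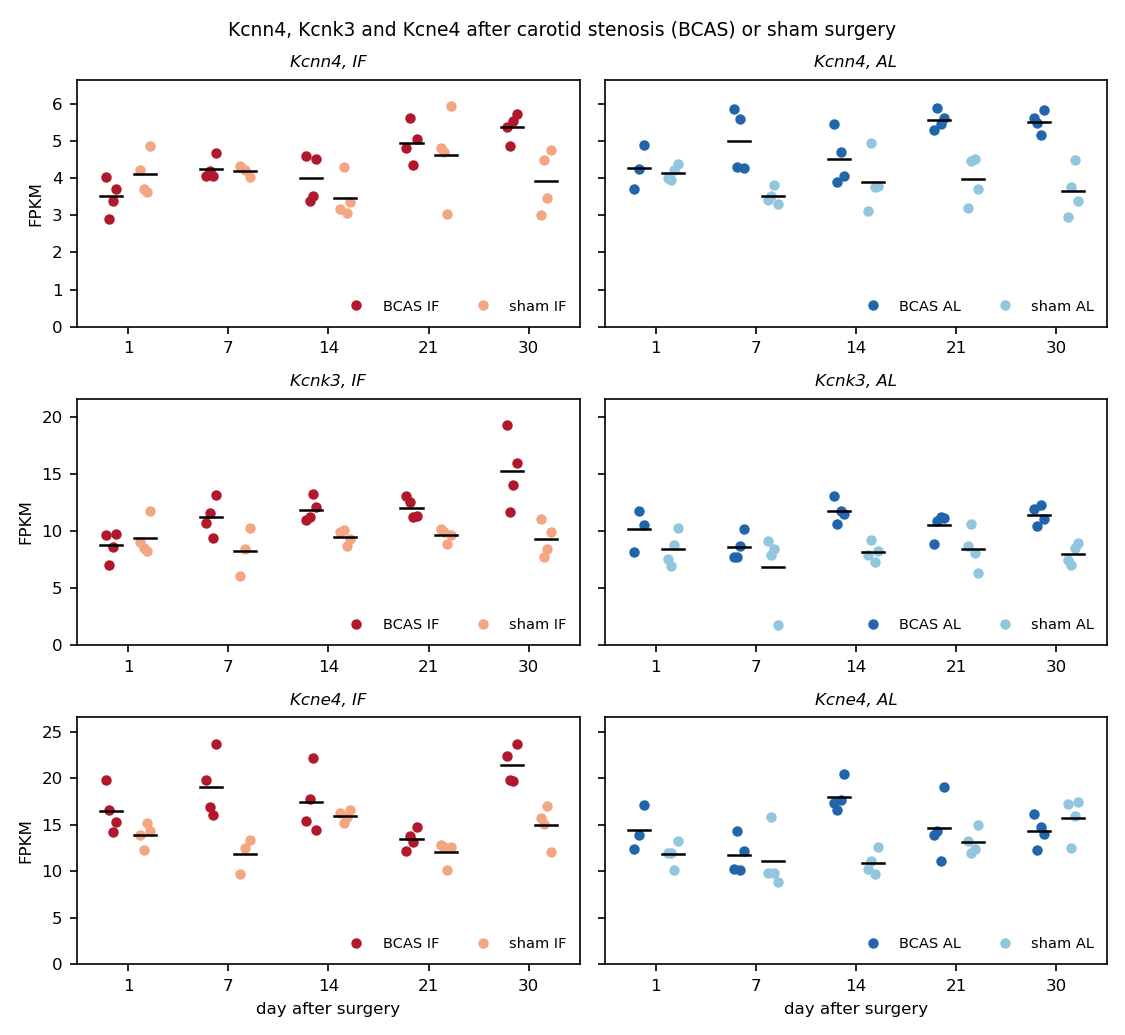
Kcnn4, Kcnk3 and Kcne4 by day after surgery in FPKM, with IF panels left of AL panels. Points are libraries, short black lines are group means, and BCAS stands left of sham. Among the groups that do not overlap are Kcnn4 under AL on days 7, 21 and 30 and Kcne4 under IF on day 7. Kcne4 under AL on day 14 and Kcnk3 under both diets on day 30 are others.

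No channel gene passed in the test of whether the BCAS difference itself varied between IF and AL. At an unadjusted p under 0.05 there were 2, Kcnn4 (-0.20 ± 0.08, limma adjusted p = 0.999) and Kcnj12 (-0.25, adjusted p = 0.999), and 0 passed with limma-voom. Over all genes 0.0127% were called. The rise of Kcnn4 under AL and of Kcne4 under IF is therefore not shown to be particular to a diet.

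Of the other markers of vascular channel types, Kcnj8 had a median of 5.19 FPKM in BCAS IF and 4.77 FPKM in sham IF arteries, and 4.63 FPKM in BCAS AL and 3.94 FPKM in sham AL arteries. Its BCAS differences were 0.05 under IF (limma adjusted p = 0.915) and 0.19 under AL (adjusted p = 0.362). Kcnma1 had medians of 1.56 FPKM in BCAS IF, 1.78 FPKM in sham IF, 1.64 FPKM in BCAS AL and 1.67 FPKM in sham AL arteries. Its differences were -0.07 (adjusted p = 0.716) and -0.04 (adjusted p = 0.829), so neither the ATP-sensitive nor the BK pore passed. The Kcna5 difference under IF was -0.33 ± 0.09 (adjusted p = 0.0548), negative on all 5 days; it is named here after its value was seen. It passed as a fall under 7 of 14 other settings (adjusted p = 0.000538 to 0.0492). Among them were the fit without the short-gene-rich libraries (adjusted p = 0.00989), which left the estimate unchanged, and the smooth muscle covariate (-0.36). It did not pass with a pseudocount of 0.1, no filter, rescaling by median ratio or the endothelium or red blood cell covariate. Nor did it pass without day 1 or without day 7.

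On single days no channel other than Kcnn4 and Kcne4 passed after BCAS. Under IF no channel gene passed on days 1, 14, 21 and 30, with 0, 1, 1 and 6 at an unadjusted p under 0.05, while 0.00637, 0, 0 and 0.0891% of all genes were called. Under AL none passed on days 1 and 21, with 5 and 2 at an unadjusted p under 0.05 and 0.376 and 0% of all genes called. With limma-voom these counts were also 0.

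IF was compared with AL within BCAS arteries and within sham arteries, which share no library with each other. Each shares an arm with the surgery comparisons above. More channel genes differed by diet than by surgery. In BCAS arteries 4 of 30 rose and 4 fell, 26.7% of the channels, beside 23.1% of all genes called (11.2% higher and 11.9% lower). In sham arteries 6 of 30 rose and 1 fell, 23.3%, beside 23.7% of all genes (11.8% higher and 11.9% lower). These shares are near the background, so the count is not a result about channels. The median change of the 30 genes was 0.043 in BCAS and 0.075 in sham arteries, beside 0.002 and 0.006 for all genes.

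Kcnt1, Kcnip3 and Kcns3 rose and Kcna2 fell under IF in both surgeries. Kcnt1 (chr2:25863734-25918273, GRCm38), the sodium-activated channel, had a lowest, median and highest level of 10.4, 14.0 and 18.4 FPKM in BCAS IF arteries, against 7.38, 10.9 and 12.7 FPKM in BCAS AL arteries. In sham arteries it had 9.85, 13.4 and 21.7 FPKM under IF, against 8.16, 10.7 and 13.7 FPKM under AL. The IF median lay above the highest AL value in BCAS arteries. In limma it rose by 0.36 ± 0.06 in BCAS (adjusted p = 8.47e-06) and by 0.32 ± 0.06 in sham arteries (adjusted p = 8.27e-05), positive on all 5 days in both.

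On day 1 Kcnt1 had 13.6, 13.4, 17.2 and 14.1 FPKM in BCAS IF arteries, against 11.1, 7.38 and 9.29 FPKM in BCAS AL arteries (0.61 ± 0.15, limma adjusted p = 0.00803; 4.37% of all genes called). The groups did not overlap. The lowest value was that of BCAS AL day 1 replicate 2, a short-gene-rich library, without which the difference was 0.48 and did not pass (adjusted p = 0.127). Kcnip3 (chr2:127456498-127522094) had 10.04, 12.8, 11.5 and 10.2 FPKM in BCAS IF on day 1, against 8.35, 7.72 and 7.63 FPKM in BCAS AL arteries (0.44 ± 0.10, adjusted p = 0.00285). These groups were separated too.

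Over the 5 days Kcnip3 had a lowest, median and highest level of 9.09, 11.3 and 13.6 FPKM in BCAS IF arteries, against 7.63, 9.41 and 12.3 FPKM in BCAS AL arteries. In sham arteries these were 9.02, 10.5 and 12.6 FPKM under IF, against 8.16, 9.04 and 11.5 FPKM under AL. It rose by 0.25 ± 0.04 in BCAS (limma adjusted p = 2.97e-06) and 0.16 ± 0.04 in sham arteries (adjusted p = 0.00213), positive on all 5 days in both. Kcns3 (chr12:11090202-11151056), the silent subunit, had medians of 2.21 FPKM in BCAS IF and 1.67 FPKM in BCAS AL arteries, and of 2.12 FPKM in sham IF and 1.77 FPKM in sham AL arteries. It rose by 0.24 ± 0.05 (adjusted p = 0.000499) and 0.18 ± 0.05 (adjusted p = 0.00957).

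Kcna2 (chr3:107101146-107115005), a voltage-gated pore, had a lowest, median and highest level of 0.993, 1.48 and 2.21 FPKM in BCAS IF arteries, against 1.27, 1.74 and 2.50 FPKM in BCAS AL arteries. In sham arteries it had medians of 1.52 FPKM under IF and 1.88 FPKM under AL. It fell by 0.20 in BCAS (limma log2 SE 0.05, adjusted p = 0.00292) and by 0.15 in sham arteries (SE 0.05, adjusted p = 0.0287). The diets overlapped in range. The sham call was lost without sham AL day 1 replicate 1, sham IF day 7 replicate 1 or sham IF day 7 replicate 2 (adjusted p = 0.0546 to 0.0645) and without day 7 (adjusted p = 0.0913).

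In BCAS arteries 4 further genes passed. Kcne4 rose under IF by 0.25 ± 0.06 (limma adjusted p = 0.0016), with a median of 16.7 FPKM under IF and 14.3 FPKM under AL. The difference was largest on days 7 and 30, at 0.66 and 0.55, while days 14 and 21 gave -0.06 and -0.09. On day 7 Kcne4 had 19.8, 16.9, 16.0 and 23.7 FPKM under IF, against 10.2, 14.3, 10.1 and 12.1 FPKM under AL (adjusted p = 0.00175). On day 30 it had 22.4, 19.8, 19.7 and 23.6 FPKM under IF, against 16.1, 12.3, 14.7 and 14.0 FPKM under AL (adjusted p = 0.0184). Neither pair overlapped, and 2.25 and 1.35% of all genes were called on these days. The day 7 call was lost with only the compared groups in the fit. Without day 7 the mean difference was 0.15 and did not pass (adjusted p = 0.134), and the day 30 call was lost without BCAS AL day 30 replicate 2 (adjusted p = 0.112) or BCAS IF day 30 replicate 4 (0.0784).

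Kcna5 (chr6:126532551-126535412), a voltage-gated pore of smooth muscle, had a lowest, median and highest level of 2.21, 3.75 and 5.08 FPKM in BCAS IF arteries, against 2.74, 4.68 and 8.08 FPKM in BCAS AL arteries. It fell by 0.33 (SE 0.09, limma adjusted p = 0.00397), negative on all 5 days. Kcnmb1 (chr11:33963013-33973641), the BK beta subunit, had 11.8, 16.9 and 24.1 FPKM in BCAS IF arteries, against 12.04, 22.7 and 27.9 FPKM in BCAS AL arteries. It fell by 0.27 (SE 0.08, adjusted p = 0.0109), also negative on all 5 days, and did not pass without day 1 (-0.22, adjusted p = 0.0757). The pore it joins, Kcnma1, had differences of 0.02 in BCAS (adjusted p = 0.8) and 0.06 in sham arteries (adjusted p = 0.423). The smooth muscle score over its 6 markers was 7.08 ± 0.23 in BCAS IF and 7.11 ± 0.31 in BCAS AL arteries (SD, n = 20 and 19), with ranges of 6.49 to 7.51 and 6.27 to 7.47.

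Kcnn4 fell under IF in BCAS arteries by 0.15 (SE 0.05, limma adjusted p = 0.038), to a median of 4.44 FPKM, against 5.29 FPKM under AL. This call was lost in 13 of 39 fits that left out 1 library (adjusted p up to 0.0827) and without day 1 (-0.13, adjusted p = 0.135) or day 7 (-0.14, adjusted p = 0.103). In sham arteries the Kcnn4 difference was 0.06 (adjusted p = 0.457). Red blood cell markers, 5 of 5 detected with none at a median of 0, had a lower mean score under IF in both surgeries. The ranges overlapped and this difference was not tested. Their score averaged 3.67 in BCAS IF (2.57 to 7.57) and 4.35 in BCAS AL arteries (2.13 to 7.19), and 3.30 in sham IF (2.04 to 5.02) and 3.79 in sham AL arteries (2.14 to 5.89). With that score as a covariate the Kcnn4 call in BCAS arteries was lost (-0.14, adjusted p = 0.072).

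In sham arteries Kcnj8, Kcnd3 and Kcnk3 rose under IF. Kcnj8 (chr6:142564837-142571614) had a lowest, median and highest level of 3.43, 4.77 and 6.79 FPKM under IF, against 2.01, 3.94 and 6.56 FPKM under AL. The difference was 0.26 ± 0.08 (limma adjusted p = 0.0173), positive on all 5 days, and did not pass without day 7 (0.24, adjusted p = 0.0625). In BCAS arteries the Kcnj8 difference was 0.12 (adjusted p = 0.306). Kcnd3 (chr3:105452330-105674002), an A-type pore, had medians of 1.57 FPKM under IF and 1.28 FPKM under AL (0.15 ± 0.05, adjusted p = 0.0342), a call lost without any 1 of 7 libraries (adjusted p = 0.0503 to 0.0915).

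Kcnk3 in sham arteries had medians of 9.32 FPKM under IF and 8.17 FPKM under AL (0.22 ± 0.09, limma adjusted p = 0.0487). The low value of 1.76 FPKM in sham AL day 7 replicate 4 enters this comparison. Without that library the difference was 0.13 (adjusted p = 0.0881), and the call was lost in 23 of 39 fits that left out 1 library. Without all 3 short-gene-rich libraries it was 0.12 (adjusted p = 0.133). In BCAS arteries the Kcnk3 difference was 0.14 (adjusted p = 0.24). That difference passed without the short-gene-rich libraries (0.16, adjusted p = 0.0353), with the smooth muscle score as a covariate (adjusted p = 0.0238) and with only the groups compared in the fit (adjusted p = 0.0461). Kcna5 in sham arteries passed as a fall without the short-gene-rich libraries (-0.22, adjusted p = 0.0258).

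**Figure D4:**
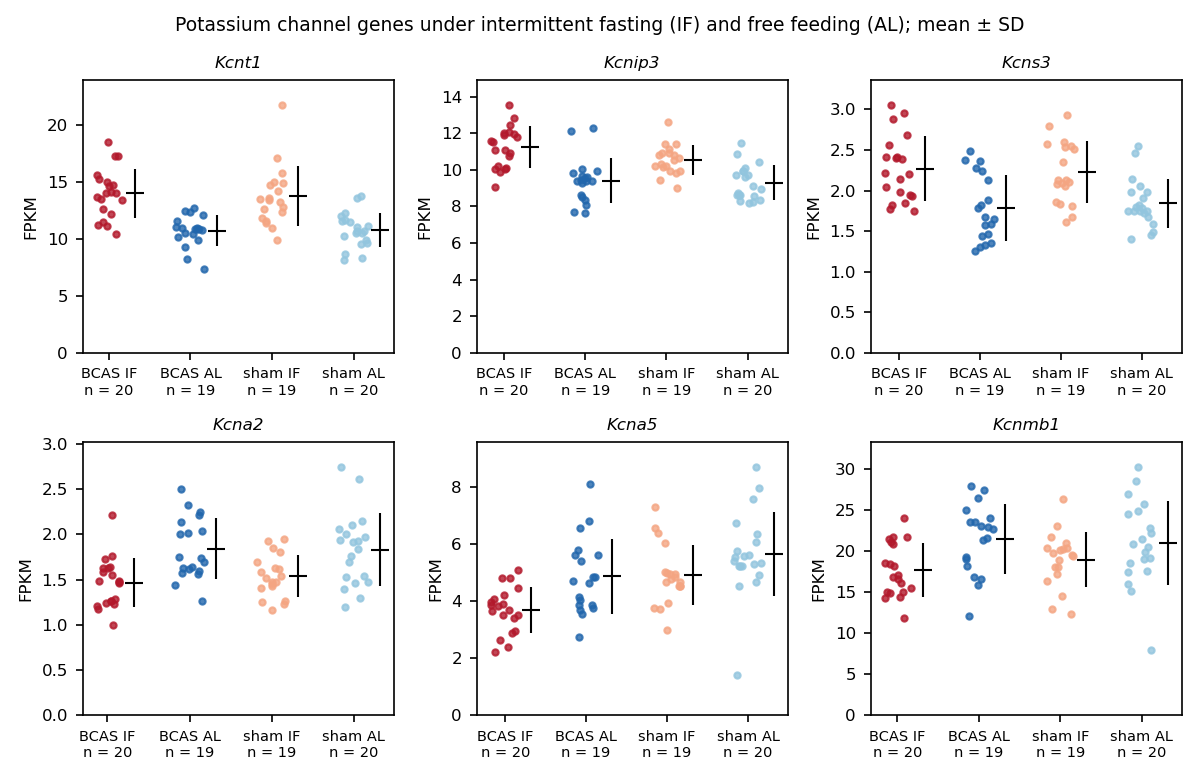
Levels in FPKM of channel genes that differed between IF and AL, by arm. Each point is a library, and the black marks are means with their SD over 19 or 20 libraries; Kcnt1 averaged 14.0 FPKM in BCAS IF, 10.7 FPKM in BCAS AL, 13.7 FPKM in sham IF and 10.8 FPKM in sham AL arteries.

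Single days added 3 calls in sham arteries. On day 1 the sodium-activated channel Kcnt2 had 2.77, 2.57, 3.38 and 2.54 FPKM under IF, against 1.43, 1.85, 2.01 and 1.45 FPKM under AL (0.51 ± 0.13, limma adjusted p = 0.0123; 3.67% of all genes called). On day 7 Kcnk5 had 9.24, 9.15 and 7.87 FPKM under IF, against 5.43, 5.33, 4.14 and 5.86 FPKM under AL (0.66 ± 0.22, adjusted p = 0.0448; 9.05% called), which was lost without the short-gene-rich libraries (0.76, adjusted p = 0.126) and in 6 of 7 fits that left out 1 library. That call was also lost with limma-voom, rescaling to TPM, no filter, the brain covariate or only the compared groups in the fit. On day 14 Kcne4 had 16.2, 15.2, 15.8 and 16.6 FPKM under IF, against 10.2, 11.1, 9.71 and 12.5 FPKM under AL (0.52 ± 0.13, adjusted p = 0.0148; 4.39% called). None of these 3 pairs of groups overlapped. The Kcnt2 call was lost without sham AL day 1 replicate 1 or 4 or sham IF day 1 replicate 3 (adjusted p = 0.0506 to 0.0815). The Kcne4 call was lost without sham AL day 14 replicate 1 (adjusted p = 0.0603) or replicate 3 (0.0507); the same AL libraries enter the day 14 surgery comparison. No channel gene passed on days 21 and 30 in sham arteries, with 4 and 7 at an unadjusted p under 0.05 and 0.382 and 4.82% of all genes called. The same held on days 14 and 21 in BCAS arteries, with 3 at an unadjusted p under 0.05 on each day and 5.67 and 0.802% of all genes called, and limma-voom gave 0 on all 4 of these days. Without the short-gene-rich libraries, none of which is of day 30, Kcne1l, a Kcne family gene, passed in sham arteries on that day (0.60, adjusted p = 0.0499).

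Days after surgery were compared within each arm by limma's F test. In BCAS IF arteries 3 channels differed between days, Kcnn4 and Kcne4 among them, with 5.23% of all genes called. Kcnn4 had daily means of 3.51, 4.25, 4.01, 4.96 and 5.38 FPKM on days 1, 7, 14, 21 and 30 (F = 5.91, adjusted p = 0.0178), lowest on day 1 and highest on day 30. Kcne4 had 16.5, 19.1, 17.4, 13.5 and 21.4 FPKM (F = 5.97, adjusted p = 0.0169), with its low on day 21. The Kcnn4 call was lost without BCAS IF day 1 replicate 2 (adjusted p = 0.0667) and the Kcne4 call without BCAS IF day 21 replicate 1 (adjusted p = 0.0661). Without the short-gene-rich libraries, none of which is in this arm, Kcnk3 (adjusted p = 0.00206) and Kcnc4 (adjusted p = 0.0279) passed as well.

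In BCAS AL arteries 4 channels differed between days, with 4.48% of all genes called, and the 3 described here had their lowest mean on day 7. Kcnab1 had 9.93, 7.81, 14.5, 11.2 and 11.97 FPKM on the 5 days (F = 6.64, adjusted p = 0.00957). Kcnma1 had 1.59, 1.13, 2.09, 1.69 and 1.56 FPKM (F = 5.95, adjusted p = 0.0176). Kcne4 (F = 4.75, adjusted p = 0.0477) had 14.5, 11.7, 17.97, 14.6 and 14.3 FPKM. Smooth muscle markers followed the same days, with scores of 7.22, 6.66, 7.42, 7.15 and 7.15. With that score as a covariate none of these 3 passed, with adjusted p = 0.159 for Kcnab1, 0.641 for Kcnma1 and 0.619 for Kcne4. The calls of Kcnab1 and Kcnma1 were also lost without BCAS AL day 7 replicate 1 (adjusted p = 0.0735 and 0.139), and that of Kcnma1 without BCAS AL day 14 replicate 2 (adjusted p = 0.0526). Kcnmb1 passed in this arm without the short-gene-rich libraries (adjusted p = 0.0238).

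In sham AL arteries 6 channels differed between days, 5 of them described here, with 17.3% of all genes called. Kcnk2 had 22.2, 24.2, 20.4, 20.8 and 16.4 FPKM on the 5 days (F = 7.98, adjusted p = 0.00238), and Kcnt2 had 1.68, 3.11, 2.24, 3.04 and 2.69 FPKM (F = 7.72, adjusted p = 0.00279). Kcnk2 was thus lowest on day 30 and Kcnt2 on day 1. Kcnab2, a beta subunit of neurons, was highest on day 7, at 1.35 FPKM (F = 5.62, adjusted p = 0.0114), a call lost without sham AL day 7 replicate 4 (adjusted p = 0.0507). Kcne4 (F = 4.72, adjusted p = 0.0231) was highest on day 30, at 15.8 FPKM. Kcnmb1 (F = 3.80, adjusted p = 0.0476) was lowest on day 7, at 15.8 FPKM, and without the 3 short-gene-rich libraries, 2 of them in that group, it did not pass (adjusted p = 0.612). Brain scores on the 5 days were 2.11, 2.62, 2.14, 2.25 and 1.95, and smooth muscle scores 7.09, 6.69, 7.05, 7.14 and 7.27, with the highest brain and the lowest smooth muscle score on day 7. With the brain score as a covariate Kcnab2 (adjusted p = 0.292), Kcne4 (0.0860) and Kcnmb1 (0.391) did not pass. With the smooth muscle score Kcnab2 (adjusted p = 0.0826), Kcne4 (0.141) and Kcnmb1 (0.450) did not pass either, while Kcnk2 and Kcnt2 passed with each score.

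In sham IF arteries no channel passed, with 6 at an unadjusted p under 0.05, 0 by limma-voom and 1.88% of all genes called. Kcnk2 passed there without the short-gene-rich libraries (adjusted p = 0.0436), though none of them is in this arm. The test of whether the BCAS difference varied between days passed for no channel under IF (0% of all genes called) or AL (1.97%), with 2 and 5 at an unadjusted p under 0.05 and 0 by limma-voom. Kcne4 under AL came nearest (F = 4.83, limma adjusted p = 0.0674). With the smooth muscle score as a covariate Kcnt2 passed under AL (F = 5.11, adjusted p = 0.0374).

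Genes that work beside these channels were looked at as a list of 43, of which 33 passed the level filter. The list holds calcium channels, sulfonylurea receptors, connexins, Trp channels and regulators. Calls of these genes were not checked under the alternative settings or without the 3 short-gene-rich libraries. After BCAS 1 rose under IF and 3 rose under AL, and none fell, with 0.758 and 0.987% of all genes called. Cacna1c, the L-type calcium channel pore of smooth muscle, averaged 3.09 ± 0.49 FPKM in BCAS IF and 2.56 ± 0.38 FPKM in sham IF arteries (0.21 ± 0.04, limma adjusted p = 0.000736). Under AL it averaged 3.04 ± 0.59 FPKM in BCAS and 2.52 ± 0.39 FPKM in sham arteries (0.18 ± 0.04, adjusted p = 0.00332). Cacna1h, a T-type pore (0.23, adjusted p = 0.0184), and Trpv4, an endothelial calcium entry channel (0.28, adjusted p = 0.0387), rose under AL as well.

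Under IF against AL, 4 of the 33 rose and 7 fell in BCAS arteries, and 3 rose and 7 fell in sham arteries. Of all genes 23.1% were called in BCAS (11.2% higher and 11.9% lower) and 23.7% in sham arteries (11.8% higher and 11.9% lower). Gja5, a connexin that couples endothelial cells, averaged 5.81 FPKM in BCAS IF and 7.87 FPKM in BCAS AL arteries (-0.39, limma adjusted p = 6.67e-05), and 5.07 FPKM in sham IF and 7.09 FPKM in sham AL arteries (-0.42, adjusted p = 2.49e-05). Wnk1, a kinase that controls cation-chloride cotransport, fell by 0.16 in both (adjusted p = 7.96e-06 in BCAS and 1.81e-05 in sham arteries). No gene of the list passed in the test of the surgery by diet difference.

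Across the 78 libraries the channels followed the marker scores of different cells. Deviations of each library from its group mean were correlated for 30 genes and 5 scores, 150 relations, with 100000 permutations each. The smallest p they can give is 1e-05, or an adjusted p of 8.33e-05 for r and 8.82e-05 for rho, which the relations below share unless stated. With the smooth muscle score 10 genes had a positive and 9 a negative relation past 0.05 in both measures. Kcnmb1 (Pearson r 0.872, Spearman rho 0.845, r 0.824 without the 2 farthest libraries), Kcnab1 (0.864, 0.813 and 0.809) and Kcnma1 (0.850, 0.859 and 0.829) were highest. In the same order of r, rho and r without the 2 farthest, Kcnh2 (0.814, 0.794 and 0.781), Kcnk3 (0.720, 0.582 and 0.588), Kcnj12 (0.704, 0.664 and 0.638) and Kcna5 (0.631, 0.514 and 0.525) were also positive. Kcnk2 (-0.673, -0.620 and -0.596) and Kcnd3 (-0.648, -0.607 and -0.597) had the opposite sign.

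Other scores had other channels. With the endothelium score Kcnn4 had an r of 0.538 (rho 0.524, 0.550 without the 2 farthest) and Kcnq1 an r of 0.478 (permutation adjusted p = 0.000273; rho 0.506, 0.464 without the 2 farthest). With the pericyte score Kcnj8 had an r of 0.718 (rho 0.688, 0.713 without the 2 farthest); that score includes Abcc9, which encodes the regulatory subunit Kcnj8 pairs with. Kcnk2 (0.645, 0.593 and 0.612) and Kcnt2 (0.513, 0.401 and 0.398, with a permutation adjusted p of 0.00156 for rho) followed the fibroblast score. Kcnj10 (0.700, 0.731 and 0.720), Kcnab2 (0.647, 0.651 and 0.648) and Kcnk1 (0.542, 0.527 and 0.534) followed the brain score of neuron, astrocyte and oligodendrocyte markers. Genes and scores share a library and its depth, and a relation does not show which cell held the RNA.

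**Figure D5:**
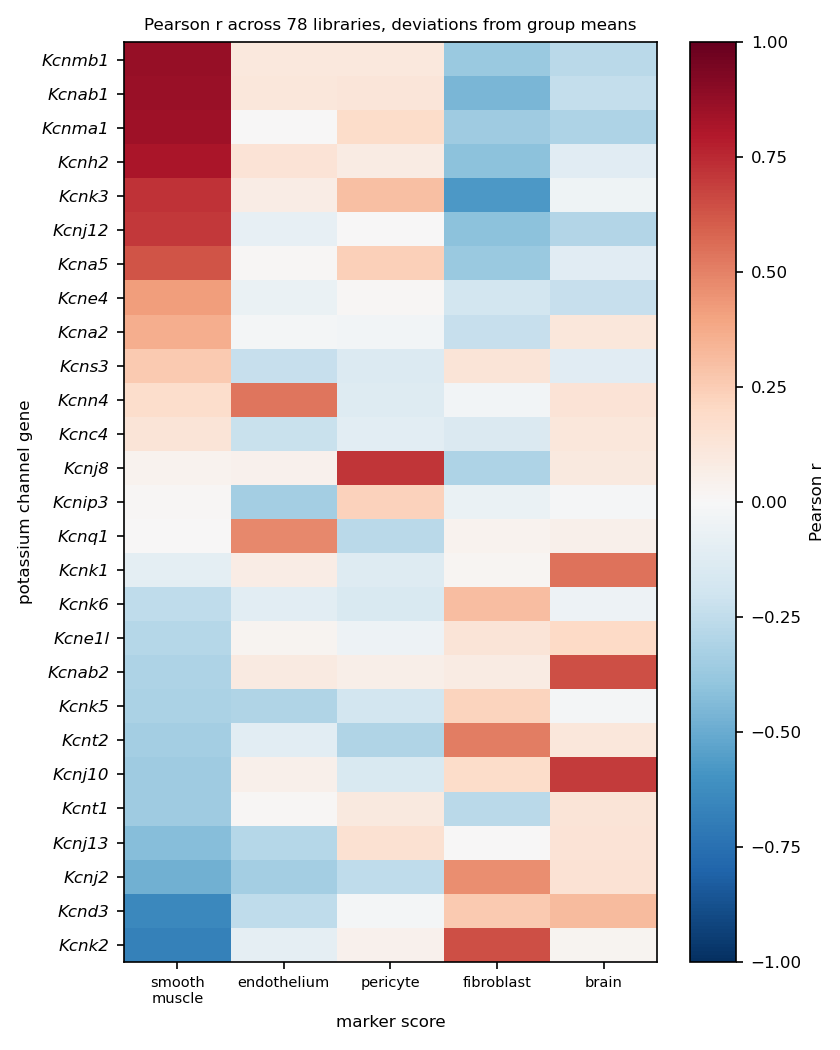
Pearson r between 27 of the 30 potassium channel genes and 5 marker scores over 78 libraries, from deviations from group means. Colour runs from negative to positive r; Kcnmb1, Kcnab1 and Kcnma1 are highest for smooth muscle (0.850 to 0.872), Kcnn4 for endothelium (0.538), Kcnj8 for pericytes (0.718) and Kcnj10 for brain (0.700).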

How the data were processed

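The authors deposited 1 table of FPKM values per gene and library, with gene lengths, per the file headers. The aligner, counter, annotation and genome build are not given in the sources used here, and DESeq 1.10.1 is named in the submitters' processing notes without a role. RNA came from an RNeasy mini kit extraction, and 2 ug of total RNA went into each library, per the labels' protocols. Of the gene IDs, 54409 matched GENCODE M21 on GRCm38, 98.3% with the same coordinates (90 of the 94 channel genes). Strand use is not stated, so overlapping antisense genes are uncertain.

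Whole fragments were recovered from the steps of each gene's FPKM (100% of values under 1000 fragments whole within 0.05), giving depth and an alternative test with limma-voom. The fit kept 15707 genes that reached 1 FPKM in 3 or more libraries. log2(FPKM + 1) was fitted with limma 3.58.1 (trend and robust, statmod 1.5.0, R 4.3.3) with 20 group means over all 78 libraries. Moderated two-sided tests of 25 contrasts and 6 F tests were adjusted by Benjamini-Hochberg over all genes kept, at a threshold of 0.05. The script was tested on simulated data.

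Alternatives were a pseudocount of 0.1, other filters, rescaling to TPM or by median ratio, limma-voom, fits of only the groups compared, fits without the 3 short-gene-rich libraries or without each library in turn, and marker scores as covariates. Means without day 1 or day 7 and the red blood cell covariate were chosen after seeing the data. Named are the 4 marker genes Kcnk3, Kcnn4, Kcnj8 and Kcnma1, every channel past the threshold, the top gene of a family and the 10 highest. Up to 4 partner genes per comparison are named too. Where none passed, the rule also took the 2 channels with the smallest p, but not all of those are named in the text. Other names were chosen outside this rule, among them Kcnq1, Kcnk1, Kcnj11, Kcnn2, Kcnn3 and the genes next to the level filter. The genes, lists and comparisons were chosen with earlier results of these data known. No libraries held identical values (0 pairs). The values of 3 of the 30 genes are not reported here, though they enter the counts.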

Additional observations from a re-analysis of the deposited data

Results flagged for a closer look

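Among the 16 group values examined for a library far from the rest of its group, 1 was found. Kcnt1 in BCAS IF day 1 replicate 3 had 17.21 FPKM, while the other 3 libraries of that group had 13.6, 13.4 and 14.1 FPKM. Its gap to the nearest library was 0.8366 of the group's range, above Dixon's critical value of 0.829 for 4 samples. Chance gives such a value in about 1 in 20 groups.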

How the results depend on the processing

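Of 84 named results 42 passed. None of these changed direction in any setting, but the 13 F tests between days among them have no direction. In every setting and every fit without 1 library 8 passed, all as means over days. They were Kcna2, Kcna5, Kcnip3, Kcns3 and Kcnt1 for IF against AL in BCAS arteries, and Kcnip3, Kcns3 and Kcnt1 in sham arteries. Counts of channel genes called moved as follows, with the number as reported first, and the cause was not tested.

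For BCAS against sham under IF the mean gave 1, and 1 to 3 without 1 library. It gave 0 without day 7, 2 without day 1, with no filter, with the 39-library filter or with the brain covariate, and 3 with limma-voom, TPM, only the groups compared, the smooth muscle covariate or without the short-gene-rich libraries. Kcnk3, a rise, joined under 6 of these (adjusted p = 0.000854 to 0.0427) and Kcna5, a fall, under 7 (0.000538 to 0.0492). Single days gave 1, and 0 to 1 without 1 library, 0 with only the groups compared or the red blood cell covariate, and 2 with no filter, TPM, the smooth muscle covariate or without the short-gene-rich libraries. Under AL the mean gave 2, and 2 to 4 without 1 library, 0 with the endothelium covariate, 1 with only the groups compared, and 3 with no filter, the smooth muscle covariate (adding Kcnab1) or without the short-gene-rich libraries (adding Kcne4). Single days gave 3, and 1 to 5 without 1 library, 0 with only the groups compared, 1 with TPM or the endothelium covariate, 6 with no filter and 7 with the smooth muscle covariate. Of the 6 with no filter, only the Kcne4 call was among the 3 reported.

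For IF against AL in BCAS arteries the mean gave 8, and 7 to 8 without 1 library. It gave 6 without day 1 or day 7, 7 with TPM or the red blood cell covariate, 9 with only the groups compared or without the short-gene-rich libraries, 10 with the smooth muscle covariate and 12 with no filter. Of these 12, 7 were among the 8 reported, and Kcnn4 was lost. Single days gave 4, and 3 to 5 without 1 library, 2 with only the groups compared and 8 with the smooth muscle covariate. In sham arteries the mean gave 7, and 5 to 8 without 1 library, 4 without day 7 and 11 with the smooth muscle covariate. Single days gave 3, and 2 to 6 without 1 library, 1 with only the groups compared, 5 with no filter and 10 with the smooth muscle covariate. Differences between days gave 13, and 9 to 18 without 1 library, 7 with only the groups compared and 8 with the smooth muscle covariate. The BCAS effect between days gave 0, and 0 to 1 without 1 library, 2 with no filter and 1 with the smooth muscle covariate. The surgery by diet difference gave 0 in all.

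Some values that had not passed changed sign. For the surgery by diet difference Kcnk3 had -0.08, from -0.12 to 0.010 without 1 library and 0.040 without the short-gene-rich libraries, and Kcnma1 had 0.011 without day 1. Without day 7 Kcnma1 had 0.012 for BCAS against sham under AL and -0.015 for IF against AL in BCAS arteries.

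Fits without 1 library also ended the call between days of Kcne4 in BCAS AL arteries (12 of 19 libraries, adjusted p up to 0.185), and of Kcnmb1 (9 of 20, up to 0.52) and Kcne4 (4 of 20, up to 0.0775) in sham AL arteries. With only the groups compared in the fit, no call between days remained in sham AL arteries (limma adjusted p = 0.186 for Kcnk2 and 0.189 for Kcnt2). Kcne4 between days was lost in both BCAS arms. After BCAS, Kcne4 did not pass on IF day 7 (0.618) or AL day 14 (0.116). For IF against AL in BCAS arteries, Kcnip3 (0.0544) and Kcnt1 on day 1 and Kcne4 on day 7 did not pass. In sham arteries Kcnt2 on day 1 and the mean differences of Kcnd3 and Kcnk3 did not pass. No paired analysis was possible because the labels give the groups no shared replicate numbers.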
